A study of Homo sapiens with 6 samples.

Results

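Syndecans and glypicans are the membrane-bound heparan sulfate proteoglycans, and all 10 human genes of the families were taken by symbol from a table of 34811 genes: SDC1, SDC2, SDC3 and SDC4, and GPC1, GPC2, GPC3, GPC4, GPC5 and GPC6. RNA-seq was carried out on clones of OVCAR-3, an established human ovarian carcinoma cell line. OV3/SCR cells (clone #1) carried a pRS HuSH-29 plasmid with a scrambled shRNA and kept wild-type COX-1, whereas OV3/COX1KD cells (clone #2) carried the same kind of plasmid with an shRNA against COX-1, the prostaglandin-making enzyme encoded by PTGS1. Both lines were selected with puromycin and grown in RPMI-1640 with 10% FBS, and each condition had 3 libraries from separate passages. Because each condition was 1 clone, the knockdown and the difference between clones cannot be told apart, and in such bulk samples fewer cells of a type and less RNA per cell cannot be told apart either.

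Each of these core proteins carries chains of heparan sulfate, a long sulfated sugar that binds growth factors, morphogens, chemokines and matrix proteins. Syndecans cross the membrane and have a short cytoplasmic tail that binds scaffold and cytoskeletal proteins, while glypicans are held on the outer leaflet by a GPI anchor. The chains are started on a linkage sugar, lengthened by EXT enzymes, sulfated in the Golgi and later trimmed outside the cell, and epithelial tumours are known to vary in both the core proteins and the chain enzymes.

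The libraries held 25291505 to 27391538 counts, so that 3 counts corresponded to 0.113 to 0.12 CPM, the count as a proportion of its TMM-scaled library. PTGS1 gave 713, 658 and 641 counts in OV3/SCR and 456, 486 and 501 in OV3/COX1KD (log2 fold change -0.45, SE 0.057, edgeR FDR = 1.3e-06), so the targeted gene was lower but still expressed in every knockdown library. Epithelial carcinoma markers (PAX8, WT1, EPCAM, KRT8, KRT18, MUC16 and CDH1) were all detected. Their summed level was 3620 to 3650 CPM in OV3/SCR and 5070 to 5230 CPM in OV3/COX1KD, with 6 of 7 higher and PAX8 lower. Genes on the opposite strand cover 22.4% of the exon bases of PAX8 and 17.1% of those of KRT18, and the kit used does not mark strand. Fibroblast markers summed to 11.3 to 12.0 CPM against 6.87 to 7.54 CPM, with 1 of 3 tested genes lower and LUM and THY1 at 3 counts or fewer in every library. Leukocyte markers summed to 1.46 to 2.15 CPM against 1.01 to 1.80 CPM with 0 of 2 tested genes called, and endothelial markers to 2.92 to 4.05 CPM against 3.91 to 4.73 CPM with 1 of 3 called (TEK) and CDH5 at 3 counts or fewer. The TEK call was lost, leaving 0, with DESeq2 and on leaving out replicate 2 or replicate 3 of OV3/SCR, or replicate 1 or replicate 3 of OV3/COX1KD. The part of these shifts in the values of the proteoglycan genes was not tested.

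The start regions of 3 members are shown. They stand for the most abundant member (SDC4), the member with the largest rise (GPC6) and the only member called lower (SDC3). Each run gives 250 bases before to 50 bases after the RefSeq start on the gene's own strand, from GRCh38.p14, at chr20:45348375-45348674 on the minus strand for SDC4, chr13:93226557-93226856 on the plus strand for GPC6 and chr1:30908709-30909008 on the minus strand for SDC3. Capitals mark matches, on either strand, to the GC box GGGCGG in SDC4 and SDC3, and to the TATA box letters TATAAA in GPC6.
SDC4: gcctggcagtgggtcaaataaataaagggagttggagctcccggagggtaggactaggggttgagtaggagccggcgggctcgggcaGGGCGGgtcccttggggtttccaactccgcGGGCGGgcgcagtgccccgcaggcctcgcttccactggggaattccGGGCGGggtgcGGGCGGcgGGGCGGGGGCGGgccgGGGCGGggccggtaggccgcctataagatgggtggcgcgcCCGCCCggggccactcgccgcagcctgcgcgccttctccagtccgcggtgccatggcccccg
GPC6: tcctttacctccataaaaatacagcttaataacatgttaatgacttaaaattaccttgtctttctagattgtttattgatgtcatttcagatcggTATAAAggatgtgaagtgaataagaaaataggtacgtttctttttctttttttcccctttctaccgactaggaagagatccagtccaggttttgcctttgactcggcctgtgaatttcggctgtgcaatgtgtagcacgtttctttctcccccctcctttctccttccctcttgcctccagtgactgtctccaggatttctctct
SDC3: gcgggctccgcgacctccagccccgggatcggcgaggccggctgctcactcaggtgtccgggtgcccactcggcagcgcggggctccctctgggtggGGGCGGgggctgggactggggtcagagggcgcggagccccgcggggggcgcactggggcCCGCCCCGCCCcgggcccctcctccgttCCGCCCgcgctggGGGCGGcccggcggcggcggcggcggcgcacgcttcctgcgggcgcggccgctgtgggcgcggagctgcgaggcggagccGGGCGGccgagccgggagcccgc
SDC4 held 8 GC boxes and SDC3 held 6, some of them adjoining, while GPC6 held 0. The GC content of the 300 bases was 74.0% in SDC4, 84.0% in SDC3 and 40.0% in GPC6, against a median of 58.7% over 35116 promoters of the same length. RefSeq entries were matched for 8 of the 10 members, SDC2 and GPC3 being the others, and 7 of the 8 held the GC box, a motif found in 45.0% of all promoters. GPC6 had 1 TATAAA match, whose first base lay at -155 from the start, and GPC5 had 1 at -242 (11.5% of all promoters hold these letters). The E-box CACGTG, found in 7.26% of all promoters, and the AP-1 motif TGANTCA, found in 7.71%, had no match in any of the 8 windows. The windows of SDC3 and SDC4 were both GC-rich with many GC boxes, and that of GPC6 was neither. What part these windows have in the changes was not tested.

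Of the 10 members, 8 passed the filter on low counts and were tested, 4 syndecans and 4 glypicans. At an FDR under 0.01, 7 of the 8 differed between the conditions, against 47.9% of all 17309 genes tested. Higher expression in OV3/COX1KD was called for 6 members (SDC1, SDC2, SDC4, GPC1, GPC4 and GPC6), against 25.8% of all genes, and lower expression for SDC3, against 22.1%. GPC2 was not called. Among genes whose mean log2 CPM reached 1, the share called was 57.7%, which is the nearer of these backgrounds for the mostly abundant members. The 7 called members had mean log2 CPM of 4.95 (GPC4) to 6.99 (SDC1), and the share called at that level is not given here. The changes were small: 0 of the 8 passed a fold change of 2.5, a size reached with the same FDR by 3.92% of all genes. The median log2 fold change of the 8 was 0.30, against -0.009 over all genes tested.

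**Figure D1:**
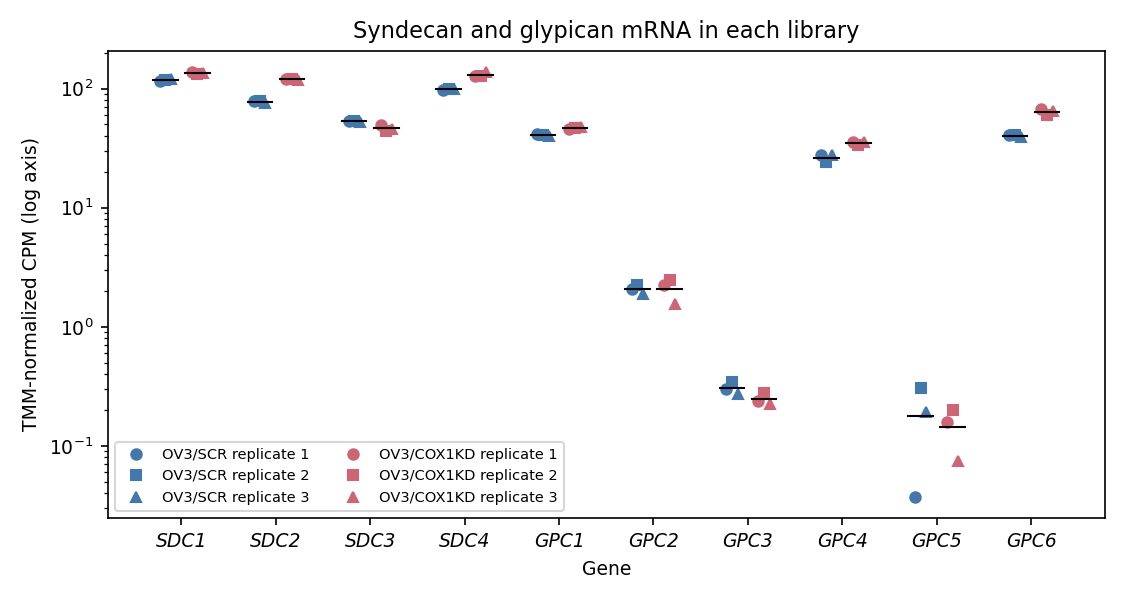
Expression of each syndecan and glypican in every library, in TMM-scaled CPM on a log axis, with a blue (OV3/SCR) or red (OV3/COX1KD) symbol for each of the 3 libraries of a condition and black lines for the means. The libraries of the conditions stood apart for SDC1, SDC2, SDC3, SDC4, GPC1, GPC4 and GPC6, whereas those of GPC2 were interleaved around 2.07 and 2.09 CPM. The share of all genes whose libraries stood apart in this way is not given here. Among genes whose mean log2 CPM reached 1, 57.7% were called at an FDR under 0.01.

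Among the syndecans, SDC2 rose most. This syndecan, best known from mesenchymal cells, lies at chr8:97506041-97624018 on the plus strand (ENSG00000169439; GRCh37, as are all positions of genes given here). It was counted 2081, 2054 and 1957 times in OV3/SCR and 3022, 3009 and 3180 times in OV3/COX1KD. Every knockdown library was above every control library, with 77.5 ± 1.63 CPM against 120 ± 0.414 CPM (SD, n = 3 each). The log2 fold change was 0.63 (SE 0.033, 95% confidence interval 0.56 to 0.70, edgeR FDR = 4.3e-12), or 1.55-fold.

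SDC4, the syndecan of focal adhesions, lies at chr20:43953928-43977064 on the minus strand (ENSG00000124145). Its CPM was 97.6, 98.7 and 99.7 in OV3/SCR and 128, 127 and 137 in OV3/COX1KD. The control libraries lay close together and below all knockdown libraries, of which replicate 3 was highest. This gave a log2 fold change of 0.40 with an SE of 0.035 (95% confidence interval 0.33 to 0.48, edgeR FDR = 7.9e-09). SDC1, the main syndecan of epithelia and of plasma cells, lies at chr2:20400558-20425194 on the minus strand (ENSG00000115884). Its libraries had 115, 118 and 121 CPM in OV3/SCR and 138, 134 and 135 CPM in OV3/COX1KD, without overlap. This was the smallest of the 3 syndecan rises (log2 fold change 0.21, SE 0.033, edgeR FDR = 2.1e-05).

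SDC3, the syndecan best known from neurons, was the exception. It lies at chr1:31342313-31381605 on the minus strand (ENSG00000162512) and had 1428, 1403 and 1363 counts in OV3/SCR against 1250, 1114 and 1230 in OV3/COX1KD. All knockdown libraries were below all control libraries, at 46.8 ± 2.66 CPM against 53.4 ± 0.582 CPM (SD, n = 3). The log2 fold change was -0.19 (SE 0.045, 95% confidence interval -0.28 to -0.10, edgeR FDR = 0.00113). With DESeq2 the value was -0.18 at an adjusted p of 0.0113, just above the threshold, and the call was lost.

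GPC6 had the largest log2 fold change of the tested members. It lies at chr13:93879060-95060274 on the plus strand (ENSG00000183098), spanning a very long gene, and encodes a glypican close in sequence family to GPC4. Counts were 1085, 1068 and 1015 in OV3/SCR and 1699, 1494 and 1741 in OV3/COX1KD. The lowest knockdown library, replicate 2 with 59.6 CPM, was above the highest control library with 41.0 CPM. GPC6 was 1.59-fold higher (log2 fold change 0.67, SE 0.047, 95% confidence interval 0.57 to 0.77, edgeR FDR = 3.1e-10). An opposite-strand lncRNA model (ENSG00000278177), which the count table does not list, covers 7.18% of its exon bases. The TruSeq RNA kit used does not mark strand, so reads of GPC6 and of this lncRNA over these 511 bases cannot be told apart. The counts of GPC6 may hold reads of both. The listed antisense genes GPC6-AS1 and GPC6-AS2 had at most 4 counts in any library.

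GPC4 lies at chrX:132434131-132549517 on the minus strand (ENSG00000076716). Its CPM was 27.6, 24.2 and 27.5 in OV3/SCR and 35.7, 33.8 and 35.7 in OV3/COX1KD. The groups stood apart although the control libraries were more spread than those of most members (log2 fold change 0.41, SE 0.056, 95% confidence interval 0.29 to 0.52, edgeR FDR = 3.4e-06). GPC1, a glypican studied as a surface antigen of pancreatic tumours, lies at chr2:241375080-241407493 on the plus strand (ENSG00000063660). The libraries had 42.0, 40.5 and 40.1 CPM in OV3/SCR and 45.5, 46.3 and 47.3 CPM in OV3/COX1KD, which did not overlap. Its rise was the smallest of the called glypicans (log2 fold change 0.18, SE 0.043, edgeR FDR = 0.00115). Scaling by total counts in place of TMM gave 0.10 at an FDR of 0.0485, and the call was lost.

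The other 3 glypicans were scarce. GPC2, known from developing neurons, had 55, 59 and 49 counts in OV3/SCR and 57, 62 and 41 in OV3/COX1KD (ENSG00000213420, chr7:99767229-99775004, minus strand). The groups overlapped, and the 95% confidence interval of the log2 fold change, -0.39 to 0.40, left room for changes about as large as that of SDC4 in either direction (estimate 0.01, edgeR FDR = 0.98). Its sign turned with single libraries, to -0.12 without OV3/COX1KD replicate 2 and to 0.19 without replicate 3. GPC3, an oncofetal antigen of liver tumours, had 8, 9 and 7 counts in OV3/SCR and 6, 7 and 6 in OV3/COX1KD (ENSG00000147257, chrX:132669773-133121127, minus strand). GPC5, its closest relative, had 1, 8 and 5 counts against 4, 5 and 2 (ENSG00000179399, chr13:92050875-93525935, plus strand). Both were outside the filter. Without the filter the log2 fold change of GPC3 was -0.28 (95% confidence interval -1.23 to 0.68, edgeR FDR = 0.723). That of GPC5 was -0.29 (95% confidence interval -1.57 to 1.00, edgeR FDR = 0.794). Changes within these intervals were not excluded at this depth. GPC4 and GPC3 are neighbours on chromosome X, 120255 bases apart, and GPC5 and GPC6 on chromosome 13, 353124 bases apart. In each of these neighbour pairs, 1 gene was well expressed and higher in OV3/COX1KD and the other was close to undetected.

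**Figure D2:**
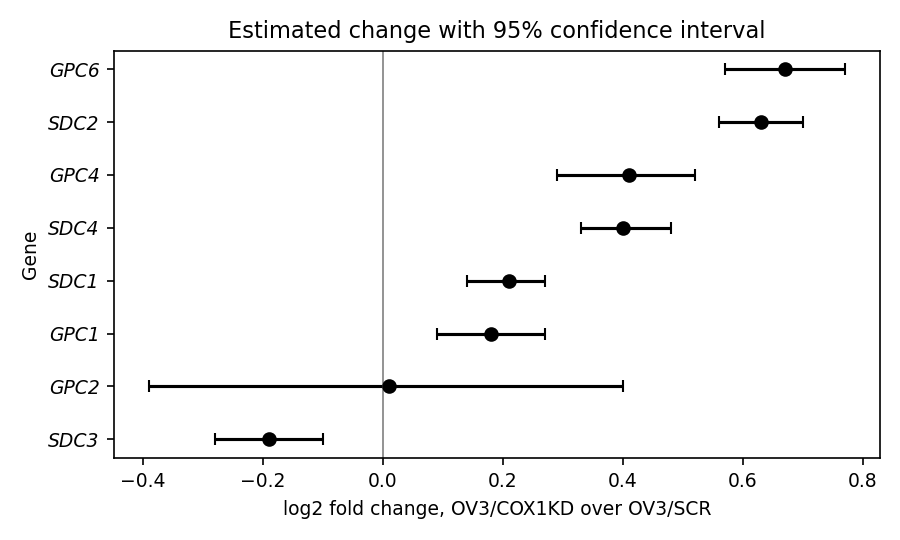
Log2 fold change of OV3/COX1KD over OV3/SCR for the 8 tested members (points), with 95% confidence intervals from the edgeR fit (bars). GPC6 (0.67) and SDC2 (0.63) lay highest, SDC3 (-0.19) was the only called value below 0, and the interval of GPC2 (-0.39 to 0.40) crossed 0.

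To compare levels between genes, counts were divided by the exon length of each gene (RPKM). In OV3/SCR, SDC4 was the most abundant member at 37.8 ± 0.39 RPKM (SD, n = 3), followed by SDC1 at 32.6 ± 0.859 RPKM and SDC2 at 19.0 ± 0.398 RPKM. SDC3 had 7.56 ± 0.0823 RPKM, GPC1 6.27 ± 0.15 RPKM, GPC6 5.66 ± 0.13 RPKM and GPC4 5.33 ± 0.389 RPKM, of which GPC6 and GPC4 overlapped between libraries. GPC2 was at 0.541 RPKM, GPC3 at 0.0931 RPKM and GPC5 at 0.0508 RPKM, and the last pair overlapped too. In OV3/COX1KD the top of the order was kept, with SDC4 at 49.9 ± 2.06 RPKM, SDC1 at 37.6 ± 0.523 RPKM and SDC2 at 29.3 ± 0.101 RPKM. GPC6 was then next at 9.01 ± 0.572 RPKM, above all libraries of GPC1 (7.11 ± 0.132 RPKM). GPC1 overlapped with GPC4 (7.07 ± 0.227 RPKM), and GPC4 overlapped with SDC3 (6.62 ± 0.376 RPKM). The order of the mid-level members rests on the exon union as the length. With the longest transcript in its place, GPC1 (11.0 RPKM) was above SDC3 (8.35 RPKM) in OV3/SCR, and GPC1 (12.5 RPKM) was above GPC6 (9.01 RPKM) and SDC3 (7.32 RPKM) above GPC4 (7.07 RPKM) in OV3/COX1KD, so that 8 of the 10 members kept their rank in OV3/SCR and 6 in OV3/COX1KD.

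**Figure D3:**
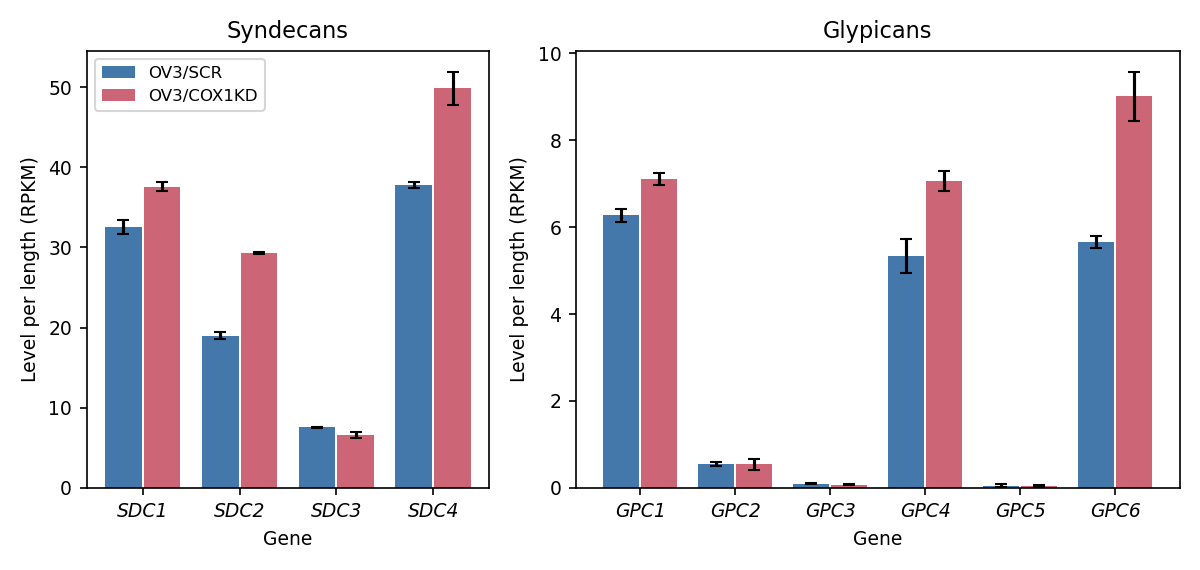
Mean level of each syndecan (left) and glypican (right) in RPKM in OV3/SCR (blue) and OV3/COX1KD (red), with error bars of 1 SD over 3 libraries and separate axes for the families. SDC4, SDC1 and SDC2 led in both conditions, and GPC6 had 5.66 RPKM in OV3/SCR and 9.01 RPKM in OV3/COX1KD.

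Summed over the family, the syndecans had 95.8, 97.3 and 97.6 RPKM in OV3/SCR and 123, 122 and 125 RPKM in OV3/COX1KD, 127% of the control. The glypicans had 18.4, 17.6 and 17.8 RPKM and then 24.4, 23.1 and 24.1 RPKM, 133% of the control. The libraries did not overlap for either sum, and no test was made of sums over chosen genes. The ratio of syndecans to glypicans was 5.40 (range 5.22 to 5.52) in OV3/SCR and 5.18 (5.06 to 5.27) in OV3/COX1KD, so the libraries of the conditions overlapped.

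Shares within a family do not depend on how the libraries are scaled. SDC2 made up 19.6% ± 0.522 of the syndecan sum in OV3/SCR and 23.8% ± 0.448 in OV3/COX1KD, and SDC4 39.0% ± 0.14 and 40.4% ± 1.12 (SD, n = 3). The shares of SDC1 (33.6% to 30.4%) and SDC3 (7.80% to 5.36%) were lower, and none of these 4 shares overlapped between conditions. SDC1 transcripts were thus more abundant in OV3/COX1KD while making up less of the syndecan sum. In the glypican sum, GPC6 went from 31.6% ± 0.942 to 37.8% ± 1.33 and GPC1 from 34.9% ± 0.399 to 29.8% ± 1.08, both without overlap. GPC4 held 29.7% and 29.6%, with overlapping libraries. GPC1 was therefore the largest glypican share in OV3/SCR and GPC6 in OV3/COX1KD, an order that rests on the exon union, since with the longest transcript GPC1 led in both conditions (47.8% and 42.2%, against 24.6% and 30.5% for GPC6).

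SDC4 and GPC6 had the highest mean RPKM of their family over all 6 libraries, although for the glypicans this depended on the condition and the length, since GPC1 led in OV3/SCR and, with the longest transcript, in both conditions. Over these libraries, the log2 CPM of SDC4 was most like that of CDCA7L (Pearson r 0.9993), IL36RN (0.9989) and F2R (0.9988). Genes close to GPC6 in the same way included LRP5 (0.9993) and FCHO1 (0.9992). These values describe the contrast between 3 and 3 libraries that many genes share: 3698 of 13004 genes reached an r of 0.9 with SDC4 and 3708 with GPC6.

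Genes around the members were then examined on GRCh37, using tested genes within 2 Mb whose mean log2 CPM reached 1. Among all genes at that level 57.7% were called in either direction, and over all genes tested 25.8% were higher and 22.1% lower. Around SDC2 on chromosome 8, 19 of 24 neighbours were higher in OV3/COX1KD and 1 was lower, and 6 rose more than SDC2 itself did. The median log2 fold change was 0.43. Within 0.5 Mb all 4 neighbours were higher, with a median of 0.56. What part the surrounding region has in the SDC2 value was not tested. Around GPC6, by contrast, 2 of 8 neighbours were higher and 3 lower, the median was 0.00, and no neighbour reached the value of GPC6. Around SDC4 the 44 neighbours had a median of 0.04, with 15 higher and 14 lower. Around GPC4 the median of 19 neighbours was 0.16, with 6 higher and 2 lower, and around SDC1 that of 8 was 0.14, with 4 higher and 1 lower. The 33 neighbours of SDC3 had a median of 0.03, with 12 higher and 11 lower. The 22 of GPC1 had a median of -0.06, although 6 were higher and 3 lower. Neither median shared the direction of its member. Around GPC2 the 64 neighbours had a median of -0.02, with 18 higher and 23 lower.

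**Figure D4:**
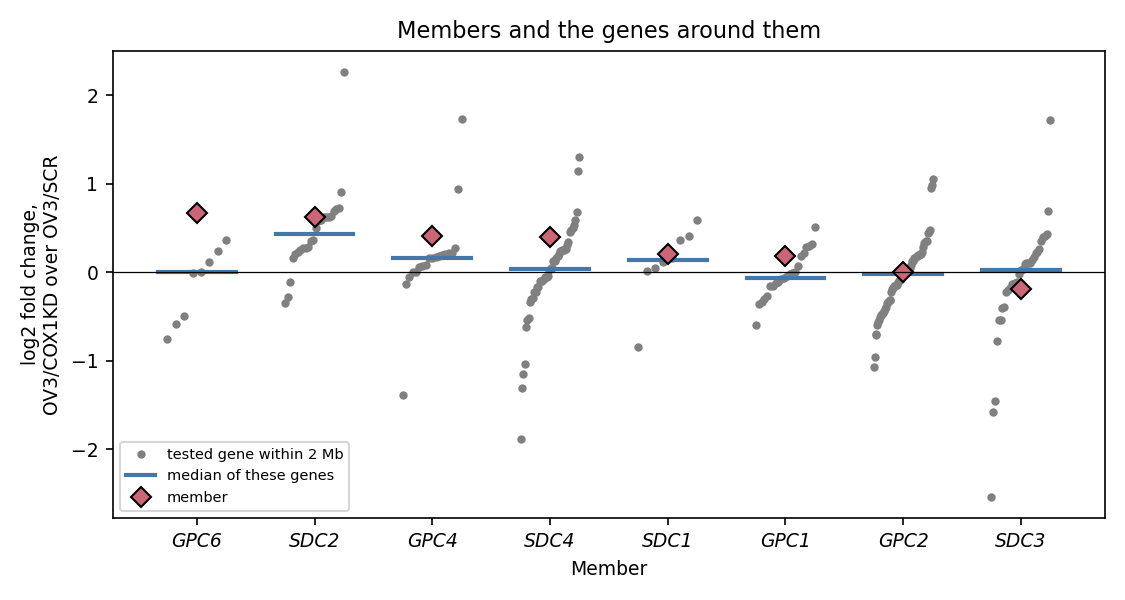
Log2 fold change of OV3/COX1KD over OV3/SCR for each tested member (red diamonds), for the genes within 2 Mb of it (grey points, sorted by value) and for the median of these genes (blue lines). The neighbours of SDC2 lay mostly above 0 (median 0.43), while GPC6 stood above all 8 of its neighbours.

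The genes that make, sulfate, edit and release the chains were followed in 9 lists of 78 genes, of which 75 were in the table and 64 were tested. In OV3/COX1KD, 32 were higher and 14 lower, 18 were not called, and the median log2 fold change was 0.19. These counts, and those of each list that follows, stand against 25.8% higher and 22.1% lower over all genes tested, and against 57.7% called in either direction among genes whose mean log2 CPM reached 1. Under total count scaling, 27 genes of the 9 lists were higher and 17 lower. No test of a list as a whole was made. Other carriers of heparan sulfate went both ways, with 4 of 8 tested genes higher and 3 lower (median 0.07). HSPG2, which encodes the basement membrane proteoglycan perlecan, had 2116, 2115 and 2120 counts in OV3/SCR and 4629, 3419 and 4822 in OV3/COX1KD (log2 fold change 1.05, SE 0.074, edgeR FDR = 2.8e-10). Replicate 2 of OV3/COX1KD was the lowest of the knockdown libraries for HSPG2, as it was for GPC6. TGFBR3 (betaglycan) had 0.64 and COL18A1 0.27. CD44, the hyaluronan receptor of which some isoforms carry heparan sulfate, fell from 1187, 1231 and 1200 counts to 573, 574 and 607 (log2 fold change -1.01, SE 0.048, edgeR FDR = 6.3e-13), and the testicans SPOCK2 (-0.97) and SPOCK1 (-0.81) fell as well. SRGN and SPOCK3 had 3 counts or fewer in every library.

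In the linkage list, which builds the sugar stub on the core protein, 4 of 6 tested genes rose and 0 fell (median 0.26): the kinase FAM20B by 0.48, the opposing phosphatase PXYLP1 by 0.77 and the first transferase XYLT2 by 0.31 are examples. The count of falls went from 0 to 1 under total count scaling and without OV3/COX1KD replicate 2. That of rises went from 4 to 3 under total count scaling. Among the chain polymerases 2 of 4 rose and 1 fell. EXT1, a subunit of the polymerase complex, went from 2641, 2744 and 2701 counts to 1763, 1707 and 1853 (log2 fold change -0.57, SE 0.036, edgeR FDR = 6.6e-11). Its partner subunit EXT2 had a log2 fold change of 0.18 and EXTL2 of 0.67. The partner subunits of the polymerase were thus called in opposite directions.

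Of the sulfotransferases and the epimerase, 6 of 10 tested genes rose and 1 fell (median 0.21), and 4 rose under total count scaling. HS2ST1, which adds sulfate to uronic acid, had 1005, 972 and 989 counts in OV3/SCR and 1788, 1779 and 1936 in OV3/COX1KD (log2 fold change 0.92, SE 0.039, edgeR FDR = 1.4e-13). HS6ST1, which sulfates glucosamine, rose by 0.70 on the log2 scale (FDR = 3.9e-12). HS3ST6, a rare-modification enzyme, had far fewer reads, 52, 63 and 54 counts against 202, 154 and 240, and its log2 fold change of 1.85 was past the fold change of 2.5. The fall was that of NDST3, with 30, 19 and 21 counts against 3, 3 and 6 (log2 fold change -2.48, edgeR FDR = 1.9e-05), a gene too scarce for the naming rule and singled out after its values were seen. With at least 10 counts required in every library NDST3 was not tested and 0 genes of the list fell. HS6ST3, HS3ST2 and HS3ST5 had 3 counts or fewer in every library. In the list for the sulfate donor 4 of 6 rose and 0 fell (median 0.46), and 1 fell under total count scaling. SLC35B2, which carries the donor into the Golgi, had 1381, 1396 and 1308 counts against 2513, 2512 and 2659 (log2 fold change 0.94, SE 0.037, edgeR FDR = 3.6e-14), and the donor-making enzymes PAPSS2 (1.21) and PAPSS1 (0.56) rose too.

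All 3 tested genes that edit the chains outside the cell rose. SULF1, which takes sulfate off glucosamine in finished chains, had 105, 79 and 114 counts in OV3/SCR and 641, 592 and 643 in OV3/COX1KD (log2 fold change 2.68, SE 0.093, edgeR FDR = 7e-15). Every knockdown library was several times above every control library. The chain-cutting heparanase HPSE had a log2 fold change of 0.82 and SULF2 of 0.26, and HPSE2 had 3 counts or fewer in every library. Of the genes for release and processing of the core proteins, 4 of 10 tested were lower, 2 were higher and 4 were not called (median -0.25). FURIN, a protease that cuts glypican precursors, had 1545, 1568 and 1462 counts against 917, 912 and 962 (log2 fold change -0.68, SE 0.042, edgeR FDR = 4.5e-11). The related convertases PCSK5 (-1.27) and PCSK7 (-0.72) fell, whereas PCSK6 (0.81) and the sheddase ADAM17 (0.28) rose. The fourth fall was that of MMP7, a syndecan-shedding metalloproteinase named after its values were seen. It had 57, 38 and 37 counts in OV3/SCR against 2, 4 and 3 in OV3/COX1KD (log2 fold change -3.79, edgeR FDR = 3.3e-08). With at least 10 counts required in every library MMP7 was not tested and 3 genes of the list fell.

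Partners of the syndecan tail were split, with 4 of 9 tested genes higher and 4 lower (median 0.08). TIAM1, a Rac exchange factor, had a log2 fold change of 0.50, PDCD6IP (ALIX) of 0.19 and SRC of 0.21. The fourth rise, that of SDCBP (syntenin), was named after its values were seen. It was small (0.15, edgeR FDR = 0.00959), and its call was lost in 8 of the 12 alternative fits, among them those without any of the OV3/SCR replicates or without OV3/COX1KD replicate 3. Under total count scaling SRC lost its call too (edgeR FDR = 0.0122), and 2 partners rose. EZR, which links membrane proteins to actin, had -0.67, the SDC4-binding kinase PRKCA -0.59 and the adaptor GIPC1 -0.20. In lysosomal breakdown of the chains 3 of 8 rose and 1 fell (median 0.17): NAGLU had 0.59 and HGSNAT 0.32, whereas IDUA had -0.45. Genes on the opposite strand cover 13.2% of the exon bases of IDUA, 18.5% of COL18A1, 11.7% of HSPG2, 10.3% of ADAM17 and 10.1% of PCSK7, and with this kit the reads there cannot be assigned to either gene.

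**Figure D5:**
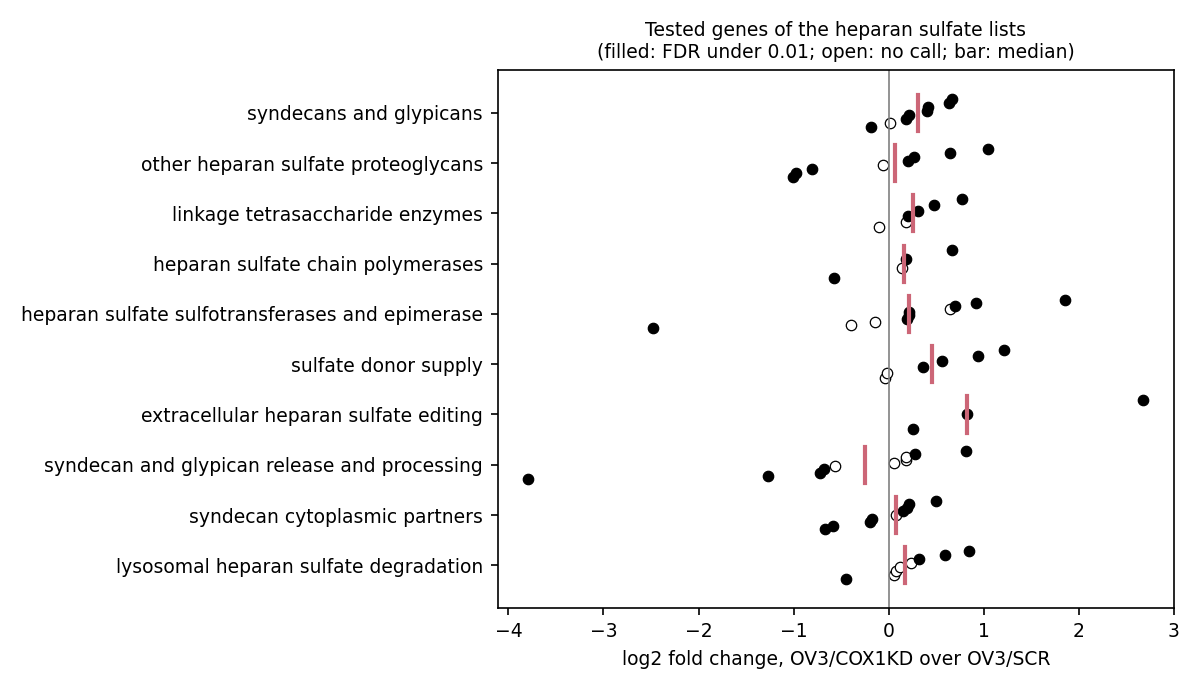
Log2 fold change of OV3/COX1KD over OV3/SCR for the tested genes of each list, with a point for each gene, filled where called at an FDR under 0.01, and open where not, and a red bar for the list median. The first line holds the syndecans and glypicans themselves. SULF1 (2.68) lay highest and MMP7 lowest, and the medians of the other lists ran from -0.25 for release and processing to 0.82 for extracellular editing.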

How the data were processed

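The deposited table holds raw counts of reads per gene, which the authors made by aligning reads of TruSeq libraries to hg19 with TopHat2 and counting with HTSeq. The gene annotation and strand setting are not given in the sources used here. Testing used edgeR 4.0.16 (R 4.3.3), with TMM scaling, the filterByExpr filter (17309 of 34811 genes kept) and a quasi-likelihood fit (glmQLFit, glmQLFTest) of condition alone. P-values were adjusted by Benjamini-Hochberg over all kept genes (FDR), and genes were called at an FDR under 0.01. Standard errors were derived from the F statistic. Library totals were 25291505 to 27391538 counts and the biological coefficient of variation was 3.21%, so p-values measure the spread between passages of 1 clone per condition. CPM and RPKM were computed from the TMM-scaled counts, with exon-union lengths and positions from GENCODE 44 lifted to GRCh37. Start regions came from RefSeq. Named were all members, PTGS1, per list up to 3 largest rises and 3 largest falls among called genes whose mean log2 CPM reached 1, list genes with 3 counts or fewer in every library, genes overlapping members, and the 3 genes most like the most abundant syndecan and glypican by RPKM, averaged over all libraries. The members and lists were chosen with earlier results of these data known. XYLT1, NDST4, HS3ST4 and PECAM1 were not analysed here, and some genes that the naming rule selects are not reported here. Alternatives were DESeq2 1.42.0, total count scaling or RLE size factors in place of TMM, a fit with no low-count filter or with a minimum of 10 counts per library, a replicate block, each library left out in turn, glmTreat, another transcript length and a window of 0.5 Mb. The fitting script was tested on simulated data.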

Additional observations from a re-analysis of the deposited data

How the results depend on the processing

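The calls of SDC1, SDC2, SDC4, GPC4 and GPC6 were kept in all 12 alternative fits, and their log2 fold changes ran from 0.13 to 0.23, 0.55 to 0.65, 0.33 to 0.43, 0.33 to 0.44 and 0.59 to 0.73. SDC3 (range -0.27 to -0.15) lost its call with DESeq2 (-0.179) and GPC1 (range 0.10 to 0.20) under total count scaling (0.104). GPC2, called in none, turned to -0.071 under total count scaling and -0.011 with at least 10 counts in every library, and leaving out a library gave -0.125 to 0.193. Total count scaling moved the calls over all genes from 4473 higher and 3820 lower to 3466 higher and 4978 lower. Without OV3/COX1KD replicate 2 there were 4852 higher and 4137 lower. Leaving out any other single library gave 3963 to 4094 higher and 3161 to 3340 lower. Calls past a fold change of 2.5, 274 higher and 405 lower, became 172 and 228 with at least 10 counts in every library and 82 and 130 with glmTreat, which tests against that fold. The lower calls past that fold were 547 without OV3/COX1KD replicate 2 and 395 to 424 without any other single library. The longest transcript as the length left 6 of 10 members at their rank in OV3/COX1KD, and gave sums of 105 and 135 RPKM for syndecans and 23.0 and 29.5 RPKM for glypicans in OV3/SCR and OV3/COX1KD. Total count scaling gave syndecan sums of 99.4 and 120 RPKM and 18.4 RPKM for glypicans in OV3/SCR. Within 0.5 Mb the neighbour medians were 0.56 for SDC2 (4 genes), 0.10 for SDC3 (3 genes), -0.04 for SDC4 (15 genes) and -0.15 for GPC1 (7 genes). GPC4 had only 1 neighbour in that window, at 0.21. With a replicate block SDC3 had -0.19 (edgeR FDR = 0.00115) and GPC1 0.18 (edgeR FDR = 0.00197), and no member's call changed. Deviations of same-numbered libraries correlated at 0.00447 to 0.0424 (mean 0.0186). Those of libraries with different numbers correlated at -0.0266 to 0.0181 (mean -0.00932). All of these were weak, and the numbers were not taken as pairs in the main fit. Depth limits GPC2, GPC3 and GPC5. The causes of these shifts were not tested.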
